A study of Mus musculus with 6 samples.

Results

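Broad 5hmC regions, defined as regions of at least 2000 bp on chromosomes 1 to 19, were examined in wild-type (WT) mice and mice without Tet1 (knockout, KO). The region list that came with the counts holds 192196 regions on 22 chromosomes, of which 189495 lie on autosomes. Of these, 2246 (1.19%) were at least 2000 bp wide and form the set described here. Another 5 regions of this width lay on chromosome X and 0 on chromosome Y or M, and they were left out. Position and width were the only criteria, and no count enters the rule, although the borders of the regions may have been drawn on the same reads.

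5-Hydroxymethylcytosine (5hmC) is made from 5-methylcytosine by the Tet dioxygenases, which use oxygen, iron and alpha-ketoglutarate. It is an intermediate in the removal of DNA methylation and also a lasting mark. In brain it is abundant compared with most tissues and is found mainly along the bodies of active genes and at enhancers. Tet1, the enzyme deleted here, is 1 member of the Tet family beside Tet2 and Tet3, which remain in the KO mice.

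5hmC was profiled in 4 libraries, namely sample 1 and sample 2 of each genotype, called KO 1, KO 2, WT 1 and WT 2 here, and values are given in this order. The labels give brain of Tet1 KO and Tet1 WT mice as the material, whereas the study describes astrocytes cultured from newborn pups of constitutive Tet1 KO mice, in which every cell lacks the enzyme. The labels name no treatment, no sex, no age and no number of animals behind a library, so the spread between samples of a genotype may be technical in part. 2 further libraries of unenriched DNA (inputs) were not analysed here.

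Total counts ranged from 16819455 in WT 1 to 19288900 in WT 2. The sample 1 libraries stood apart from the sample 2 libraries in the share of counts held by a pair of broad regions at the start of chromosome 9, given below, and in the scaling factor applied to every region, which was 1.23 in KO 1 and 1.12 in WT 1 against 0.815 in KO 2 and 0.894 in WT 2. KO 2 stood apart from the other libraries on chromosome Y, where it had 46 counts, against 1765 in KO 1, 5353 in WT 1 and 4420 in WT 2, and the part of this in the broad regions was not tested. KO results for broad regions are therefore given for each KO library, and the tests are also given without either of them. Levels, ratios and the order of the libraries below depend on the scaling, and these factors are used unless another scaling is named.

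Coordinates below are those of the count table, in mouse build mm9 per the labels. Neither a genome nor an annotation of mm9 was at hand, and the broad regions were therefore not placed in genes, exons or introns, nor is their sequence given.

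First, the widths of the broad regions were examined. Most broad regions were only a little wider than the limit. Their median width was 2357 bp (lower quartile 2143.25, upper quartile 2701.75), against 433 bp for the 187249 autosomal regions under 2000 bp. There were 1403 regions of 2000 to 2499 bp, 526 of 2500 to 2999 bp, 293 of 3000 to 4999 bp and 24 of 5000 bp or more. The broad regions together covered 5.69 Mb of the 106.66 Mb held by autosomal regions, which is 5.34% of the length for 1.19% of the regions.

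Regions on either side of the limit had similar median levels. There were 412 regions of 2000 to 2099 bp, with a median of 7.65 CPM per kb (counts per 1e+06 scaled counts of the library, divided by the width in kb), and 509 regions of 1900 to 1999 bp, with a median of 7.89 CPM per kb. The median here is over regions of the mean of the 4 libraries. Among the narrowest broad regions, the one on chromosome 8 from 122361785 to 122363784 had 6.85 CPM per kb in KO 1, 8.55 in KO 2, 8.28 in WT 1 and 8.35 in WT 2. The one on chromosome 10 from 120895242 to 120897241 had 7.64, 7.22, 7.43 and 7.91 CPM per kb in the same order. Just under the limit, at 1999 bp, the region on chromosome 4 from 149316991 to 149318989 had 5.44, 9.85, 7.24 and 8.496 CPM per kb. The other region of 1999 bp, on chromosome 7 from 80652900 to 80654898, had 8.37, 5.17, 6.90 and 4.71 CPM per kb. The genotypes overlapped in all 4 of these regions.

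**Figure D1:**
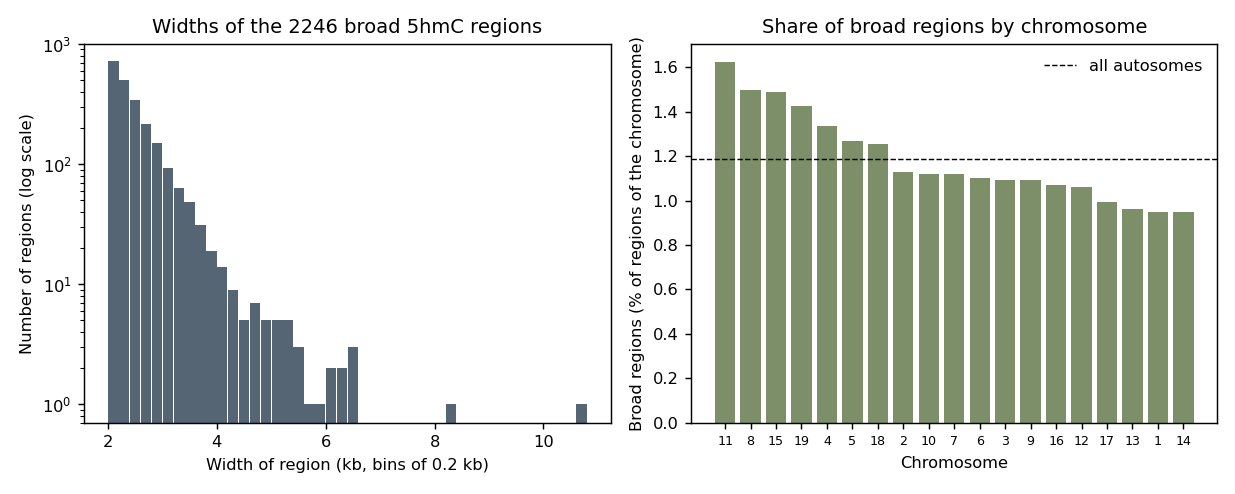
The left panel counts the 2246 broad regions by width in bins of 0.2 kb on a log scale, and the right panel gives the broad regions as a percentage of the regions of each of the 19 autosomes, with the value over all autosomes (1.19%) as a dashed line. The counts fall with width to a single region of 10674 bp, and the percentage runs from 0.948 on chromosome 14 to 1.62 on chromosome 11.

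Next, the genomic spread of the broad regions was described. Broad regions were found on all 19 autosomes, at 0.909 regions per Mb. Their share of the regions of a chromosome was highest on chromosome 11, where 189 regions made up 1.62% of its regions and 1.55 per Mb. It was 1.497% on chromosome 8 (159 regions), 1.49% on chromosome 15 (125 regions) and 1.42% on chromosome 19 (78 regions). The lowest shares were 0.948% on chromosome 14 (76 regions), 0.950% on chromosome 1 (130 regions) and 0.963% on chromosome 13 (85 regions). Differences between chromosomes were not tested.

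When each autosome was divided into 5 stretches of equal length, the share of broad regions among all regions was 0.906% in the stretch at the start of the numbering, then 1.09%, 1.15% and 1.26%, and 1.37% in the last. The first stretch held 10.95% of the broad regions and 14.3% of all autosomal regions, and the last held 30.2% and 26.2%. Broad regions therefore lay more often toward the end of the chromosome than the regions as a whole did in this table. Mouse autosomes carry the centromere at the start of the numbering.

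Broad regions lay closer to other 5hmC regions than regions under 2000 bp did, and only a little closer than regions of 1500 to 1999 bp. The median gap to the nearest other region was 817 bp (quartiles 391.25 and 1875.75), against 1750 bp (616 and 5019) for regions under 2000 bp. A gap under 1 kb was found for 1284 broad regions (57.2%) and for 36.2% of the narrower ones. Within 50 kb there was a median of 22 other regions (quartiles 16 and 28) around a broad region and of 14 (8 and 20) around a narrower one. For the 4111 regions of 1500 to 1999 bp alone, the median gap was 924 bp, 52.9% had a gap under 1 kb and the median number within 50 kb was 19. The nearest neighbour was itself at least 2000 bp wide for 3.78% of the broad regions and for 1.18% of the narrower ones. Only 2 broad regions had no other region within 50 kb, and the larger of the 2 gaps was 118159 bp. How close 2 regions must lie to be joined by the program that drew them is not given in the sources used here, and its part in these gaps was not tested.

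Many broad regions also lay near another broad region, though runs of narrower regions were not counted for comparison. With a gap of at most 50 kb between consecutive broad regions, 983 of the 2246 (43.8%) fell into 374 runs of 2 or more. At 10 kb there were 176 runs with 402 regions (17.9%), and at 100 kb 437 runs with 1236 regions (55.0%). Of the runs at 50 kb, 22 held 5 or more broad regions, with 124 regions on 13 chromosomes in all.

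The run with the most members, 10 broad regions, was on chromosome 8 from 10824470 to 11006802, where broad regions covered 27.7 kb of 182.333 kb. Its summed level was 8.19 CPM per kb in KO 1, 9.71 in KO 2, 8.14 in WT 1 and 8.03 in WT 2. The log2 ratio of KO to WT was 0.01 in sample 1 and 0.28 in sample 2, so both KO libraries were above both WT libraries, by little in sample 1. A run of 6 broad regions on chromosome 15 from 77623902 to 77665908 had 8.11, 13.7, 8.80 and 9.55 CPM per kb in the same order of libraries, with log2 ratios of -0.12 and 0.52. A run of 6 on chromosome 9 from 63559506 to 63604318 had 7.27, 12.05, 7.49 and 8.21 CPM per kb, with log2 ratios of -0.04 and 0.55. In these last 2 runs KO 2 was the highest library and KO 1 the lowest under the scaling used throughout. Over the 22 runs of 5 or more, the log2 ratio was above 0 in 7 runs in sample 1 (median -0.04, range -0.29 to 0.12) and in 21 runs in sample 2 (median 0.24, range -0.12 to 0.55). Both ratios were above 0 in 6 runs and both were below 0 in 0 runs.

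The level of 5hmC in broad regions was then compared with that in narrower regions. Per kb of width, broad regions held more normalised counts than narrower regions in all 4 libraries. The median was 7.66 CPM per kb in KO 1, 9.08 in KO 2, 7.79 in WT 1 and 7.89 in WT 2. This is 8.37 ± 1.00 in KO and 7.84 ± 0.0658 in WT (SD, n = 2 each). Since KO 1 lay below and KO 2 above both WT libraries, the genotypes overlapped. That order depends on the scaling, whose factor was 1.23 in KO 1 and 0.815 in KO 2. With total counts as the only scaling, KO 1 had the highest median and KO 2 lay between the WT libraries, so the genotypes overlapped too. Under the scaling used throughout, regions under 2000 bp had medians of 5.89, 5.74, 5.78 and 5.72 CPM per kb in the same order of libraries. The broad regions were thus 1.30 times the narrower ones in KO 1, 1.58 times in KO 2, 1.35 times in WT 1 and 1.38 times in WT 2.

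The level rose with width up to about the limit in every library. Beyond the limit it rose further in WT 2, and most in KO 2. In WT 1 and KO 1 it rose up to 3000 to 4999 bp and was lower at 5000 bp or more. In WT 1, the median was 4.04 CPM per kb for regions under 300 bp, 6.40 for 500 to 999 bp, 7.57 for 2000 to 2499 bp, 8.31 for 3000 to 4999 bp and 8.02 for 5000 bp or more. WT 2 had 4.17, 6.34, 7.70, 8.33 and 8.59 CPM per kb in the same classes. KO 1 had 4.15, 6.41, 7.56, 7.91 and 7.44, whereas KO 2 had 3.16, 6.74, 8.86, 9.87 and 10.9. Under the scaling used throughout, KO 2 was thus the lowest library among the narrowest regions and the highest among the widest. With total counts as the only scaling, KO 1 had the highest median among the widest. Spearman's rho between width and level was 0.085 over the 2246 broad regions and 0.439 over all 189495 autosomal regions. All regions share the same libraries and their borders may depend on the reads, so these are descriptions.

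**Figure D2:**
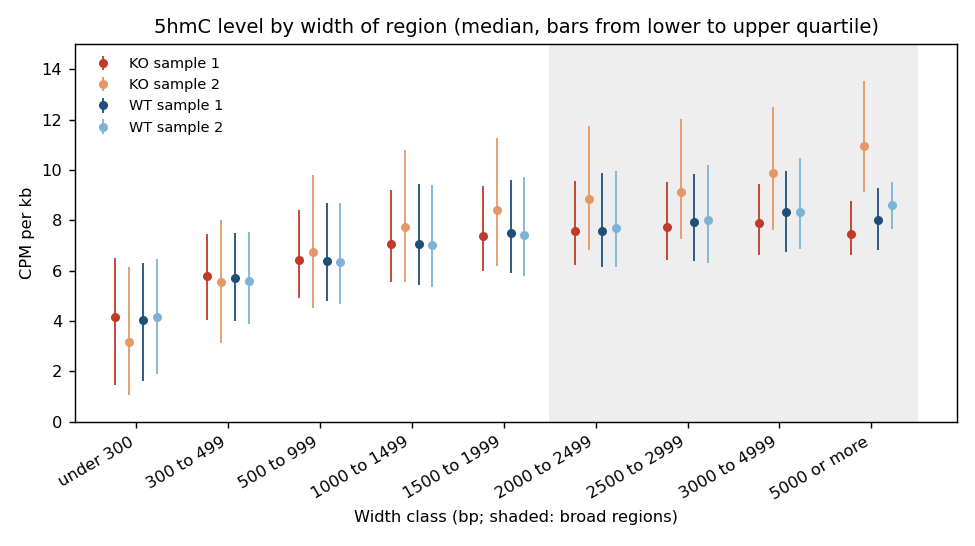
Median CPM per kb (points) with the lower and upper quartiles (bars) for 9 classes of region width in each of the 4 libraries, with the classes of broad regions shaded. In the class of 5000 bp or more the median is 10.9 in KO 2, against 7.44 to 8.59 in the other 3 libraries.

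The spread of levels over the broad regions, and over the libraries within a region, was also described. The central 90% of the 2246 regions lay between 4.79 and 13.1 CPM per kb in KO 1, between 4.49 and 17.1 in KO 2, between 4.69 and 13.8 in WT 1 and between 4.69 and 14.4 in WT 2. Within a region, the highest of the 4 libraries was a median of 1.42 times the lowest, and 1394 regions (62.1%) stayed within 1.5-fold. Only 11 regions spanned more than 3-fold. Under the scaling used throughout, KO 2 was the highest library in 1311 regions (58.4%), against 384 for KO 1, 292 for WT 2 and 259 for WT 1. KO 1 was the lowest library in 852 regions (37.9%). The KO libraries thus often lay on opposite sides of the WT libraries under this scaling. These counts were not taken with total counts as the only scaling, nor over all tested regions.

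The 3 regions of highest mean level were far from this range. The first, on chromosome 9 from 3000032 to 3002631, had 99688 counts in KO 1, 358349 in KO 2, 150006 in WT 1 and 346342 in WT 2. This corresponds to 1798, 8961, 3083 and 7748 CPM per kb. The second, on chromosome 9 from 3035680 to 3038305, had 132, 640, 225 and 569 CPM per kb in the same order. Both sample 2 libraries were above both sample 1 libraries in this pair of regions, and the genotypes overlapped. The log2 difference between KO 1 and KO 2 was -2.32 in the first region, the widest gap between KO libraries among the broad regions, and that between WT 1 and WT 2 was -1.34 in the second, the widest between WT libraries. A like split was seen in the 24 autosomal regions under 2000 bp with a mean count of 1000 or more. Their median log2 difference was -2.27 between KO 1 and KO 2 and -1.32 between WT 1 and WT 2. The chromosome 9 pair alone held 9.77% of the counts of all broad regions in KO 1 and 15.2% in WT 1. It held 30.9% in KO 2 and 30.7% in WT 2. Whether reads that match several places were counted in this pair, or in the region on chromosome 17 of the same group of 3, was not tested.

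Because of this pair, the share of all counts that fell in broad regions depended on whether it was kept. The share was 6.30% in KO 1 (95% Wilson interval 6.28 to 6.31), 6.57% in KO 2 (6.56 to 6.58), 6.28% in WT 1 (6.27 to 6.29) and 6.28% in WT 2 (6.27 to 6.29). With the pair taken out of the broad regions but left in the library total, the share was 5.68%, 4.54%, 5.32% and 4.35% in the same order. Both sample 1 libraries were then above both sample 2 libraries. The pair itself made up 0.615% of the total in KO 1, 2.03% in KO 2, 0.958% in WT 1 and 1.93% in WT 2. With the pair kept, both KO libraries were above both WT libraries, KO 1 by little. The genotypes overlapped without the pair, and the intervals cover counting error only.

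The third of these regions, on chromosome 17 from 39979965 to 39983338, had 29.1 CPM per kb in KO 1, 29.98 in KO 2, 47.7 in WT 1 and 70.5 in WT 2. Outside these 3, the highest levels were on chromosome 14 from 69898535 to 69900692 (17.1, 29.9, 25.01 and 28.4 CPM per kb) and on chromosome 11 from 102911232 to 102913649 (21.3, 25.1, 26.1 and 27.5), a pair of regions picked after the values were seen. At the low end, the region on chromosome 6 from 52842388 to 52844951 had 4.63, 2.64, 3.08 and 3.20 CPM per kb. The region on chromosome 18 from 83265256 to 83267287 had 3.39, 4.77, 3.34 and 3.03 CPM per kb. The other of the 3 lowest, on chromosome 13 from 53564825 to 53567253, had 2.34, 8.22, 1.496 and 2.16 CPM per kb, with KO 2 far above the other 3 libraries. Even the lowest count of any broad region in any library was 60, and 3 counts, taken as the floor of detection, corresponded to between 0.141 and 0.195 CPM.

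The 6 widest regions show the order of the libraries in single regions. The widest, on chromosome 11 from 117168938 to 117179611 (10674 bp), held 2379, 2357, 2292 and 2368 counts in the 4 libraries. Scaled, these were 10.4, 14.4, 11.5 and 12.9 CPM per kb, and the WT libraries lay between the KO libraries. The fitted log2 ratio of KO to WT was 0.02 with a standard error (SE) of 0.30. The next, on chromosome 15 from 85513316 to 85521701 (8386 bp), had 6.65, 11.6, 6.58 and 7.69 CPM per kb and a log2 ratio of 0.36 ± 0.31 (SE). The third, on chromosome 5 from 114818892 to 114825483 (6592 bp), had 11.05, 16.3, 12.03 and 13.5 CPM per kb. Under the scaling used throughout, KO 2 was the highest library in all 6 of the widest regions. With total counts as the only scaling, KO 1 was the highest in the widest and in the third region. The fitted log2 ratios of the 6 regions ran from 0.08 to 0.71 without KO 1 and from -0.25 to -0.09 without KO 2.

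The remaining 3 of the widest regions were of nearly equal width. A pair of them on chromosome 18 lay side by side, from 75531525 to 75537981 (6457 bp) and from 75538710 to 75545114 (6405 bp). The first of the pair had 7.66, 8.93, 8.44 and 8.51 CPM per kb in KO 1, KO 2, WT 1 and WT 2. The other had 6.97, 9.21, 7.27 and 7.55 CPM per kb. The region on chromosome 7 from 56503601 to 56509998 (6398 bp) had 7.37, 11.9, 8.48 and 9.07 CPM per kb. Under the scaling used throughout, the WT libraries lay between KO 1 and KO 2 in all 3 of them. The fitted log2 ratios of the 3 regions were -0.03 ± 0.27, 0.13 ± 0.27 and 0.14 ± 0.29 (SE), each smaller than its error.

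Agreement between libraries was measured next. The WT libraries agreed closely in broad regions, and the KO libraries did not. The spread between 2 libraries that is left after counting error is taken off, given as a coefficient of variation (BCV, from edgeR's common dispersion), was 0.0973 within WT and 0.249 within KO over the 2246 broad regions. Across genotypes it was 0.121 within sample number 1 and 0.193 within sample number 2. For the pairs of unlike number it was 0.153 (KO 1 with WT 2) and 0.217 (KO 2 with WT 1). Each KO library was thus closer to either WT library than to the other KO library, and KO 1 was closer to both WT libraries than KO 2 was. Of the broad regions, 98.7% were within 1.5-fold in WT and 74.4% in KO.

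Spearman's rho of CPM, not divided by width, was taken across the 2246 regions. It was 0.916 within WT, 0.877 within sample number 1, 0.817 within sample number 2 and 0.696 within KO. Pearson's r of log2 CPM was 0.936, 0.899, 0.851 and 0.743 in the same order. Regions are not independent replicates, and part of any correlation of counts across regions comes from their widths.

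In narrower regions the BCV was 0.220 within WT and 0.439 within KO, but these regions also hold fewer counts. Among regions with a mean count of 300 to 400, the WT pair had a BCV of 0.0985 in 641 broad regions and 0.0984 in 1768 narrower ones. For the KO pair it was 0.245 and 0.278. Among regions with a mean count of 400 to 600, it was 0.0824 in 637 broad regions and 0.0869 in 594 narrower ones for the WT pair, and 0.232 and 0.259 for the KO pair. At 300 to 600 counts the spread within WT was thus nearly the same in broad and narrower regions. At 600 to 1000 counts it was 0.0769 within WT in 223 broad regions and 0.106 in 60 narrower ones, whereas within KO it was 0.247 and 0.202, the reverse order. At 100 to 200 counts it was 0.134 within WT in 75 broad regions and 0.148 in 26488 narrower ones. Without the pair on chromosome 9, the BCV over all broad regions was 0.0940 within WT and 0.247 within KO.

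**Figure D3:**
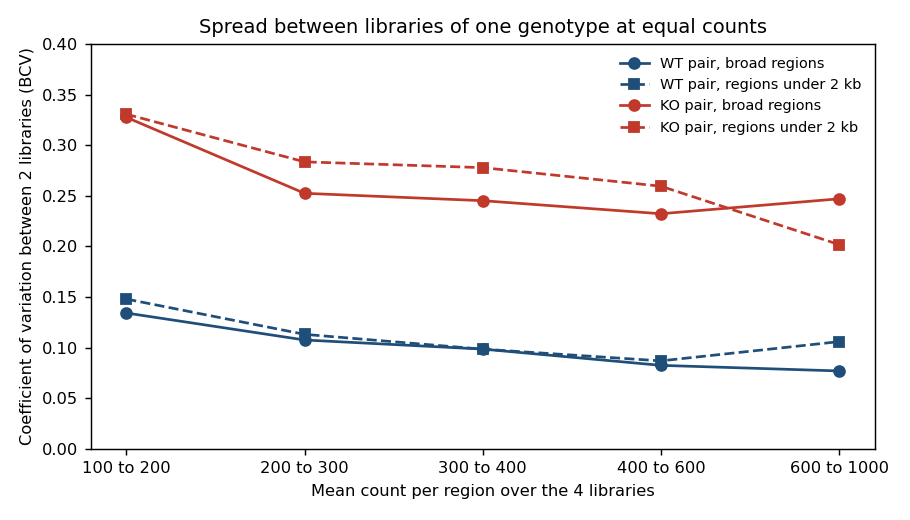
BCV of the WT pair (blue) and of the KO pair (red) in 5 classes of mean count per region, for broad regions (circles, solid) and regions under 2000 bp (squares, dashed). The KO pair lies above the WT pair in every class, for example at 0.245 against 0.0985 in broad regions of 300 to 400 counts.

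Broad regions close to each other shared their difference between the KO libraries. For 226 pairs of consecutive broad regions with a gap of at most 10 kb, the log2 ratio of KO 1 to KO 2 in the first region of a pair had a Pearson's r of 0.408 (Spearman's rho 0.393) with that in the second. For 566 consecutive pairs more than 1000 kb apart, r was 0.080 (rho 0.086). For the ratio of WT 1 to WT 2 it was 0.033 (rho 0.024) in the close pairs and 0.040 (rho 0.042) in the distant ones. The KO to WT ratio of sample 2 had r of 0.242 (rho 0.241) in close pairs, and that of sample 1 had 0.067 (rho 0.065). The pairs share their libraries and lie in the same genomic neighbourhood, so these values are descriptions.

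To identify broad regions with altered 5hmC upon loss of Tet1, KO was compared with WT by edgeR's quasi-likelihood test across all 176957 regions with enough counts, with Benjamini-Hochberg adjustment. All 2246 broad regions had enough counts. At adjusted p under 0.05, 0 of the 2246 broad regions passed, and the share over all tested regions was also 0%. The lowest adjusted p among broad regions was 1 after rounding. DESeq2 called 0 broad regions as well, with a lowest adjusted p of 0.542, while it called 0.00339% of all tested regions (6 regions).

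At an unadjusted p under 0.05 in edgeR, 27 broad regions (1.20%) had higher and 4 (0.178%) had lower values in KO, where over all tested regions the shares were 1.54% and 1.27%. The share on the higher side was near the background and that on the lower side below it. DESeq2 gave 25 and 4 broad regions, with 1.16% higher and 0.807% lower over all tested regions. The 27 regions lay on 14 chromosomes, with log2 ratios of 0.62 to 1.52, and the 4 on 3 chromosomes, with log2 ratios of -0.65 to -1.04.

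The ratios of KO to WT, which are relative within a library, were small. The study's dot blot found less 5hmC in KO astrocytes as a whole, a change that such ratios cannot show. The median fitted log2 ratio over the broad regions was 0.09 (quartiles -0.06 and 0.24, range -1.04 to 1.52), and over all tested regions it was 0.02 (quartiles -0.30 and 0.33). A ratio above 0 was found in 1464 broad regions (65.2%) and in 51.9% of all tested regions. A log2 ratio of at least 1 in size was found in 5 broad regions (0.223%), against 6.44% of all tested regions, which hold fewer counts each.

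Both KO libraries lay above both WT libraries in 423 broad regions (18.8%) and below both in 189 (8.41%). Over all tested regions the shares were 15.3% and 15.6%. With total counts as the only scaling, 405 broad regions (18.0%) lay above and 78 (3.47%) below, with 14.6% and 11.2% over all tested regions. The median log2 ratio was 0.33 in the 423 regions, and in the 189 it was -0.26. The median widths of these sets, 2322 and 2353 bp, were close to that of all broad regions.

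The leaning of broad regions toward KO differed between the sample numbers. In sample 1, the median log2 ratio of KO to WT was -0.02 (SD over regions 0.26), and 46.0% of broad regions were above 0. In sample 2 it was 0.18 (SD 0.37), and 70.2% were above 0. Over all tested regions the medians were 0.00 and -0.01. The median was above 0 on 4 of the 19 autosomes in sample 1 and on all 19 in sample 2. When libraries were scaled by total counts alone, the direction in sample 1 turned, with a median of 0.12 in sample 1 and 0.05 in sample 2 over broad regions and of 0.12 and -0.12 over all tested regions. Relative to all tested regions, the broad regions then stood at -0.0046 in sample 1 and 0.17 in sample 2, against -0.02 and 0.19 with the scaling used throughout.

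The ratios of sample 1 and sample 2 were nearly unrelated region by region, with a Pearson's r of 0.019 and a Spearman's rho of 0.0041 over the 2246 regions. Both ratios were above 0 in 698 regions (31.1%) and both below in 335 (14.9%). The ratio was below 0 in sample 1 and above 0 in sample 2 in 878 regions (39.1%), the most frequent of the 4 combinations under the scaling used throughout. The opposite was found in 335 regions (14.9%). With total counts as the only scaling, 68.3% of broad regions were above 0 in sample 1 and 56.1% in sample 2. The combinations were not counted under that scaling, nor over all tested regions.

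**Figure D4:**
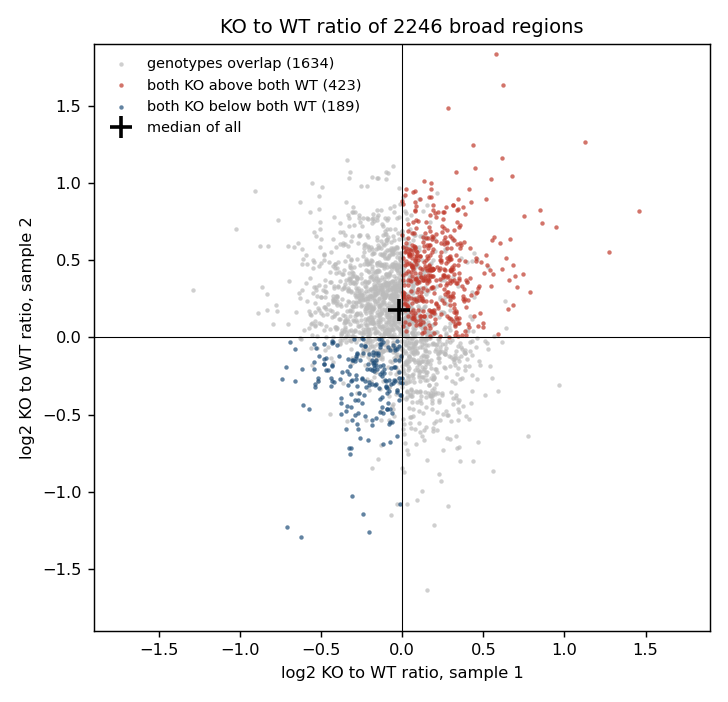
Each point is 1 of the 2246 broad regions, with the log2 ratio of KO to WT in sample 1 on the horizontal and in sample 2 on the vertical axis. Red points are the 423 regions with both KO libraries above both WT libraries and blue points the 189 with both below, and the cross marks the medians, -0.02 in sample 1 and 0.18 in sample 2.

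The tests without a KO library show the same split. Without KO 1, edgeR called 321 broad regions at adjusted p under 0.05 (14.3%), of which 273 were higher and 48 lower in KO, where over all tested regions 7.65% were called. The median log2 ratio was then 0.21. Without KO 2, edgeR called 25 broad regions (1.11%), of which 8 were higher and 17 lower, with 1.11% called over all tested regions, and the median log2 ratio was -0.04, so its direction turned. In these fits the remaining KO library has no replicate and is assumed to vary like the WT libraries, which agreed more closely with each other than the KO libraries did. Without either WT library, 0 broad regions were called, with medians of 0.08 and 0.10.

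The ratio in sample 2 also changed with the width of the regions. Its median was -0.18 for regions under 300 bp, 0.05 for 500 to 999 bp, 0.14 for 1500 to 1999 bp, 0.18 for 2000 to 2499 bp and 0.34 for the 24 regions of 5000 bp or more. In sample 1 it ran from 0.00 for regions under 300 bp to -0.09 for those of 5000 bp or more. The difference between the KO libraries changed accordingly, from 0.08 on the log2 scale (sample 1 less sample 2) under 300 bp to -0.24 at 2000 to 2499 bp and -0.48 at 5000 bp or more. Between the WT libraries it was -0.05, -0.02 and -0.14 in the same classes. Of the KO libraries, only KO 2 thus gained relative to its WT library with width. These classes hold all autosomal regions, also those with too few counts to be tested. Counts were low in the narrowest class, with a median of 21.75 per region, against 313.75 at 2000 to 2499 bp.

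Broad regions were also set beside regions of 500 to 1999 bp of the same level, in 7 classes of CPM per kb. In sample 2 the median log2 ratio was higher in the broad regions in all 7 classes, by 0.05 to 0.13. In sample 1 it was higher in 6 of them. At 7 to 8 CPM per kb, for example, it was 0.19 in 381 broad regions and 0.11 in 9190 narrower ones in sample 2, and 0.01 and -0.01 in sample 1. The exception was the class under 6 CPM per kb, where it was 0.05 in broad and 0.08 in narrower regions in sample 1, against 0.11 and -0.02 in sample 2. At 12 CPM per kb or more it was -0.13 and -0.20 in sample 1 and 0.17 and 0.11 in sample 2. These differences were not tested, since the regions are not replicates. Regions of the same level also differed in counts, with a median of 318.75 in broad and 104.25 in narrower regions at 7 to 8 CPM per kb. The part of counts in these differences was not tested. Over the broad regions, Spearman's rho between level and ratio was -0.243 in sample 1 and 0.081 in sample 2.

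The regions of lowest unadjusted p were examined one by one, and none of them passed the adjusted threshold. Highest in KO relative to its error was the region on chromosome 11 from 53576147 to 53578421 (2275 bp). It had 434 counts in KO 1, 422 in KO 2, 169 in WT 1 and 191 in WT 2, or 8.94, 12.1, 3.97 and 4.88 CPM per kb. Both KO libraries were above both WT libraries, at 10.5 ± 2.203 against 4.43 ± 0.646 CPM per kb (SD, n = 2 each). The log2 ratio was 1.25 ± 0.29 (SE), with an unadjusted p of 0.000628 and an adjusted p of 1 by edgeR.

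A second region on chromosome 11, from 5428883 to 5431192 (2310 bp), had 6.13, 11.5, 3.91 and 3.58 CPM per kb in KO 1, KO 2, WT 1 and WT 2. Its log2 ratio was 1.23 ± 0.33 (SE), with an unadjusted p of 0.00175 by edgeR, and it was 0.71 without KO 2. On chromosome 6, the region from 123596079 to 123598780 (2702 bp) had 16.7, 7.89, 5.93 and 4.39 CPM per kb in the same order. Here KO 1 was far above the other 3 libraries, unlike in most broad regions, and the log2 ratio was 1.25 ± 0.34 (SE) with an unadjusted p of 0.00209 by edgeR. It was 0.61 without KO 1 and 1.69 without KO 2. The largest fitted log2 ratio, 1.52 ± 0.47 (SE), was that of the low region on chromosome 13 from 53564825 to 53567253, with 121, 307, 68 and 90 counts. It was 2.18 without KO 1 and 0.36 without KO 2, so its size rested on KO 2.

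In the other direction, the region on chromosome 17 from 13743457 to 13746079 (2623 bp) had 533 counts in KO 1, 459 in KO 2, 727 in WT 1 and 1272 in WT 2. Its level was 9.53, 11.4, 14.8 and 28.2 CPM per kb, and the gap was wider within WT than within KO. The log2 ratio was -1.04 ± 0.32 (SE), with an unadjusted p of 0.00478 by edgeR, and it was -0.50 without WT 2 and -1.43 without WT 1. The other region on chromosome 17, from 39979965 to 39983338 and already named for its high level, had 29.6 ± 0.597 CPM per kb in KO and 59.1 ± 16.1 in WT (SD, n = 2 each). Its log2 ratio was -0.999 ± 0.310 (SE), with an unadjusted p of 0.00528 by edgeR. On chromosome 1, the region from 174274459 to 174279562, 5104 bp wide, had 5.79, 3.75, 6.86 and 8.39 CPM per kb and a log2 ratio of -0.67 ± 0.29 (SE), which was -1.02 without KO 1 and -0.40 without KO 2. All 3 had an adjusted p of 1 by edgeR.

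**Figure D5:**
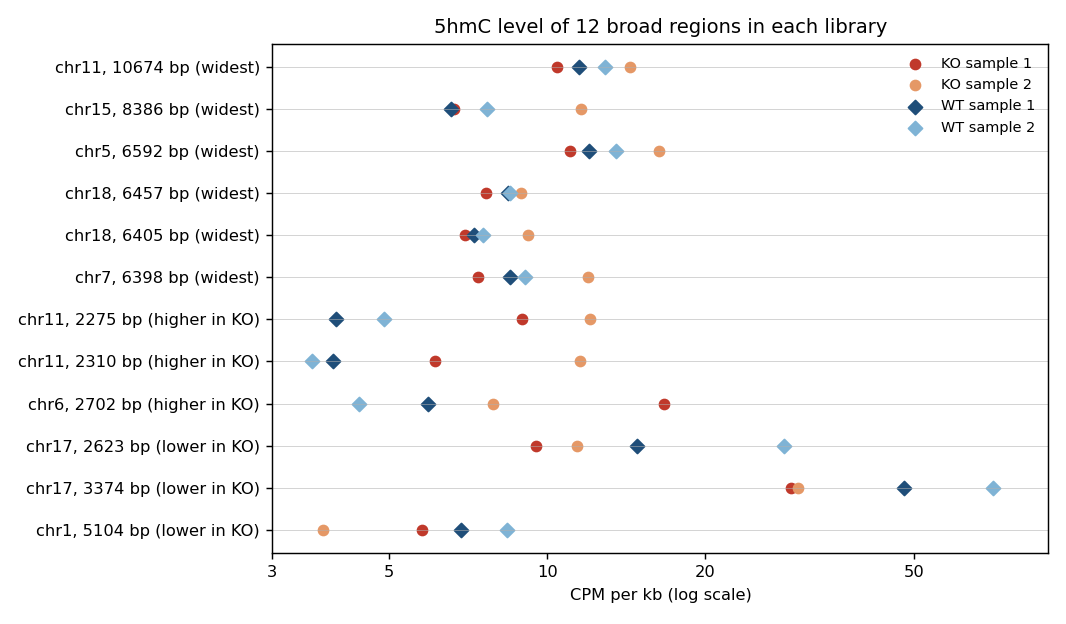
CPM per kb on a log axis in KO 1 and 2 (circles) and WT 1 and 2 (diamonds) for the 6 widest broad regions and for the 3 of lowest unadjusted p in each direction. Under the scaling used throughout, KO 2 is the highest library in the 6 widest regions, and in the other 6, chosen so, the genotypes do not overlap.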

How the data were processed

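DNA carrying 5hmC was labelled chemically with biotin through a modified glucose, pulled down and sequenced. The authors deposited raw, whole-number counts of 4 libraries over a common list of regions. Submitters' processing notes name Bowtie2 2.2.6 and mm9, and regions on 9 chromosomes end past the GRCm38 chromosome ends. The program that drew the regions, the counter and the handling of duplicate and multiply matching reads are not given in the sources used here. The labels give no batch.

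Groups and sample numbers come from the sample titles. Counts were scaled with edgeR's TMM method (factors 1.23, 0.815, 1.12 and 0.894 for KO 1, KO 2, WT 1 and WT 2), expressed per 1e+06 (CPM) and divided by width in kb. Such counts are relative within a library, so a change of all 5hmC alike cannot be seen. Regions were filtered with filterByExpr (minimum count 10, minimum total 15), and KO was tested against WT with edgeR 4.0.16 in R 4.3.3 (quasi-likelihood, Benjamini-Hochberg over 176957 regions, threshold 0.05), with DESeq2 1.42.0 as an alternative. The SE is the fitted log2 ratio divided by the square root of its F statistic. Ratios within a sample number are differences of log2(CPM + 0.5). With 2 libraries per genotype, the smallest two-sided p of an exact permutation test is 0.333, so none was run. The median count per broad region was 405, 340, 361 and 334 in the order above. Shares have 95% Wilson intervals, and the floor was 3 counts, both for counting error only. The code was tested on simulated data.

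Named are the 6 widest, the 3 highest and the 3 lowest regions by mean CPM per kb, the 3 of lowest p in each direction without overlap of the genotypes, the widest gap between KO and between WT libraries, and 2 regions on each side of the width limit. The members, rules and tests were chosen with earlier results of these data known. Alternatives were other scalings, filters, thresholds and widths, a replicate block and leaving out each library. Inputs, genes and sequences were not analysed here.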

Additional observations from a re-analysis of the deposited data

How the results depend on the processing

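The count of broad regions called by edgeR at adjusted p under 0.05, which was 0, did not change with DESeq2, with total counts as the only scaling, without the low-count filter, with a mean count of at least 20, at an adjusted p of 0.01, at width limits of 1500 and 3000 bp, and without the pair on chromosome 9, an alternative chosen after seeing the data. At an unadjusted p under 0.05, edgeR gave 27 higher and 4 lower in KO. Leaving out 1 library gave 0 to 321 calls, with 25 without KO 2 and 321 without KO 1, and median log2 ratios of -0.04 to 0.21. In those fits the spread comes from 1 pair of libraries. Total counts as the only scaling took the share with both KO libraries below both WT libraries to 3.47%, where over all tested regions it went from 15.6% to 11.2%. The WT median level was 7.60 CPM per kb at a limit of 1500 bp and 8.29 at 3000 bp.

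Sample numbers are shared by the genotypes in the labels, but nothing says that they pair the libraries. Deviations of same-numbered libraries from their genotype means had a correlation of 0.323 over the 2246 broad regions. In a fit with a replicate block for the sample number, 0 broad regions and 79 of all tested regions passed, the median log2 ratio was 0.07, and the lowest adjusted p of a broad region was 0.0549 by edgeR. The tests rest on 2 libraries per genotype, with a lowest count of 60 in a broad region and a BCV of 0.249 within KO. The part of depth in the absence of calls was not tested.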

Other observations

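Outside the pair on chromosome 9, the broad region with the widest gap between the KO libraries, picked after the values were seen, was on chromosome 1 from 145668081 to 145671270 (3190 bp). It held 536, 86, 410 and 235 counts in KO 1, KO 2, WT 1 and WT 2, or 7.88, 1.75, 6.87 and 4.28 CPM per kb. KO 1 was above KO 2 by 2.07 on the log2 scale, and both WT libraries lay between them. This is against the direction found in most broad regions under the scaling used throughout. A run of 8 broad regions on chromosome 5 from 93139249 to 93363826 had 8.09, 8.85, 8.79 and 8.24 CPM per kb in the same order, and a run of 7 on chromosome 4 from 153874580 to 153973709 had 8.61, 10.8, 8.67 and 9.44. In both runs, too, the WT libraries lay between KO 1 and KO 2 under the scaling used throughout.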
